A study of Caenorhabditis elegans with 16 samples.

Results

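The genes studied here belong to the route that carries new proteins from the endoplasmic reticulum (ER) to the Golgi in *C. elegans*, and all 6 of them were present among the 8347 named entries of the expression table. They had been chosen by name as parts of the translocon, of the COPI and COPII coats, and of the small GTPases that act with them: *emo-1*, *sec-24.1*, *copb-2*, *copd-1*, *arf-1.2* and *rab-1*. RNA was measured by sequencing of whole worms in 4 groups of 4 replicates. The groups were WT (N2) animals on vehicle plates, WT animals on plates with 10 µg/mL tunicamycin (TM), *osm-3(dh441)IV* mutants on vehicle plates, and *osm-3(dh441)IV* mutants on TM plates. All animals were on day 1 of adulthood, had grown as synchronized populations at the same temperature, and stayed on their plates for 6 hr. TM blocks the first step of N-glycosylation and is a standard inducer of ER stress. *osm-3* encodes a kinesin of sensory cilia, and the mutant group represents the single allele dh441 in every cell of the animal.

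Secreted and membrane proteins enter the ER through the Sec61 translocon. COPII vesicles then take cargo forward from ER exit sites, while COPI vesicles, built on membranes by Arf GTPases, return escaped ER proteins and sort cargo within the Golgi. Rab1 tethers vesicles at the ER-Golgi boundary. In yeast and in animal cells, parts of this route belong to the transcriptional program of the unfolded protein response, and the worm moves large amounts of collagen and yolk protein through it.

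Before the results, the libraries themselves were compared. Reads on named genes numbered 4173301 to 8144875 per library, with *osm-3* vehicle replicate 3 and *osm-3* TM replicate 3 the shallowest. *hsp-4*, the worm BiP chaperone that marks the ER stress response, rose in WT animals from 4573 to 6292 reads per library on vehicle to 11826 to 15191 on TM (log2 difference 1.02 ± 0.13 SE, limma adjusted p = 1.8e-04). In *osm-3* mutants its difference was 0.12 ± 0.13 (adjusted p = 0.61). There it passed in 1 of 29 alternative fits, with libraries weighted by how closely they followed their group means (0.31, limma adjusted p = 0.010). That fit called 1423 of all genes in this comparison. Libraries also differed in how values depended on gene length. The Spearman correlation over genes between a library's deviation from the gene mean and exon length ran from −0.59 in *osm-3* TM replicate 2 to 0.44 in *osm-3* TM replicate 4, so that these replicates of a single group lay at the opposite ends of the range. Sperm transcripts (the 10 *msp* genes named in the table) took 0.0098% to 0.0185% of reads in WT libraries and 0.0437% to 0.0988% in *osm-3* libraries. Cuticle collagens (the 68 *col* genes named in the table) took 5.58% to 9.74% in WT and 9.72% to 13.6% in *osm-3* libraries. Members of these families that are absent from the table were not counted. Yolk genes, of which 2 of 6 were in the table, took 3.81% to 6.2% in WT and 2.55% to 5.71% in *osm-3* libraries, and 7 of 15 germline genes took a median of 0.389% in WT vehicle, 0.348% in WT TM, 0.362% in *osm-3* vehicle and 0.299% in *osm-3* TM libraries. No marker of these lists was at 0 in all libraries, and the part of these markers in the results below was not tested. In whole worms, fewer cells of a type and less RNA per cell cannot be told apart.

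The 6 genes lay on 3 chromosomes of the WBcel235 build. *emo-1* (WBGene00001303), which encodes the gamma subunit of the Sec61 translocon, was the shortest, with 2 exons and 437 exon bases at chromosome V, 10896658 to 10897143, on the minus strand. *sec-24.1* (WBGene00004755), a cargo-binding subunit of the COPII coat, was the longest, with 9 exons and 3830 exon bases at chromosome IV, 11561986 to 11566194, minus strand. *copb-2* (WBGene00009542), the beta-prime subunit of the COPI coat, had 10 exons and 3722 exon bases at chromosome IV, 9459731 to 9464020, plus strand. *copd-1* (WBGene00015734), the delta subunit of the same coat, had 5 exons and 1808 exon bases at chromosome III, 6622700 to 6624972, minus strand. *arf-1.2* (WBGene00000182), the worm ortholog of the GTPase ARF1 that recruits COPI, had 5 exons and 1308 exon bases at chromosome III, 5714886 to 5717586, plus strand. *rab-1* (WBGene00004266), the Rab1 ortholog, had 6 exons and 1096 exon bases at chromosome V, 1262629 to 1263989, minus strand. *copb-2* and *copd-1* each shared some exon bases with a gene on the opposite strand, F38E11.6 and C13B9.2. The reads had been assigned by strand.

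Per kb of exon, *emo-1* was the most abundant of the 6 genes and the 2 long coat genes were the least abundant. *emo-1* had 4150 ± 401 normalized reads per kb (SD, n = 16 libraries), above 95.9% of the 4061 tested genes with an exon length. *arf-1.2* followed with 1663 ± 162, above 88.6% of genes, and then came *rab-1* with 961 ± 114 and *copd-1* with 899 ± 121. *sec-24.1* had 573 ± 113 and *copb-2* 541 ± 98.3 normalized reads per kb, above 63.5% and 61.7% of genes. *emo-1* stood above *arf-1.2*, and *arf-1.2* above *rab-1*, in 16 of 16 libraries with no overlap of their ranges. *rab-1* was above *copd-1* in only 11 of 16 libraries, and *sec-24.1* above *copb-2* in 13 of 16, so the order within these neighbouring pairs did not exceed the spread over libraries. *copd-1* was above *sec-24.1* within each of the 16 libraries although their ranges overlapped. A level per kb of so short a transcript as *emo-1* depends strongly on the exon length used.

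**Figure D1:**
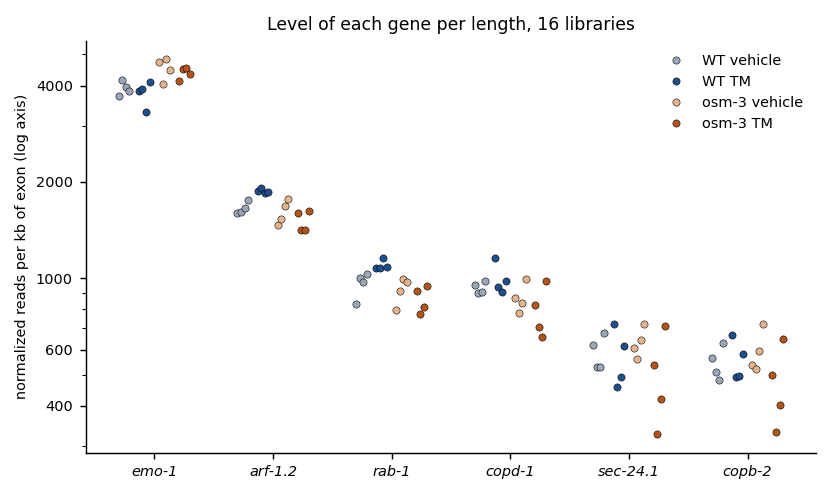
Normalized reads per kb of exon (log axis) for the 6 genes, with each of the 16 libraries as a point coloured by group. *emo-1* lies between 3309 and 4824 in all libraries and *arf-1.2* between 1415 and 1916, while *sec-24.1* and *copb-2* fall to 327 and 331 in their lowest *osm-3* TM library.

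The genes also differed in how much they varied. The SD of the log2 value over the 16 libraries was 0.28 for *sec-24.1* and 0.25 for *copb-2*, larger than for 85.9% and 80.1% of the genes tested. It was 0.18 for *copd-1*, 0.15 for *rab-1*, and 0.13 for both *arf-1.2* and *emo-1*, the last of which varied more than only 25.2% of genes. Values below are variance-stabilized log2 values, on which a difference of 1 is close to a doubling for well-expressed genes and is compressed for rare ones.

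The first comparison asked what 6 hr of TM did to these genes in WT animals. None of the 6 genes passed the test, where 1.56% of all genes did (64 of 4115, limma adjusted p under 0.05, and 370 at an unadjusted p under 0.05). With the replicate number within each genotype as a block, 244 of the 4115 genes passed and none of the 6. Their median log2 difference was 0.05 beside −0.02 over all genes tested. The Arf and Rab GTPases had the largest differences, and for both the 4 TM libraries lay above the 4 vehicle libraries, as held in this direction for 2.31% of all genes.

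*arf-1.2* had log2 values of 11.17, 11.17, 11.21 and 11.28 in WT vehicle replicates 1 to 4 and of 11.37, 11.40, 11.35 and 11.36 in WT TM replicates 1 to 4. The TM values were higher in all 4 and lay close together. The difference of 0.16 ± 0.080 SE (95% interval −0.003 to 0.33) had a limma adjusted p of 0.58. *rab-1* had 10.11, 10.34, 10.30 and 10.38 on vehicle and 10.43, 10.43, 10.52 and 10.43 on TM. Vehicle replicate 1 was the low value, and the groups did not overlap. The difference was 0.17 ± 0.085 (95% interval −0.009 to 0.35, limma adjusted p = 0.62).

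The coat genes and the translocon gene showed no such separation in WT animals. *copb-2* had 11.16, 11.04, 10.96 and 11.31 on vehicle and 11.38, 10.98, 11.003 and 11.20 on TM. *copd-1* had 10.91, 10.83, 10.84 and 10.94 on vehicle and 11.16, 10.89, 10.84 and 10.95 on TM. For both COPI genes TM replicate 1 was the highest value and the other TM values fell within or close to the vehicle range. *sec-24.1* had 11.33, 11.12, 11.12 and 11.45 on vehicle and 11.53, 10.94, 11.03 and 11.32 on TM. Its TM values reached both above and below the vehicle values. *emo-1* had 10.83, 10.97, 10.91 and 10.87 on vehicle and 10.87, 10.90, 10.68 and 10.96 on TM, with TM replicate 3 the low value. Differences were 0.03 ± 0.16 for *copb-2*, 0.08 ± 0.11 for *copd-1*, −0.05 ± 0.18 for *sec-24.1* and −0.04 ± 0.082 for *emo-1*, each with a limma adjusted p of 0.995. The 95% interval of *emo-1*, from −0.22 to 0.13, was the narrowest of these 4, and that of *sec-24.1*, from −0.42 to 0.32, the widest.

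**Figure D2:**
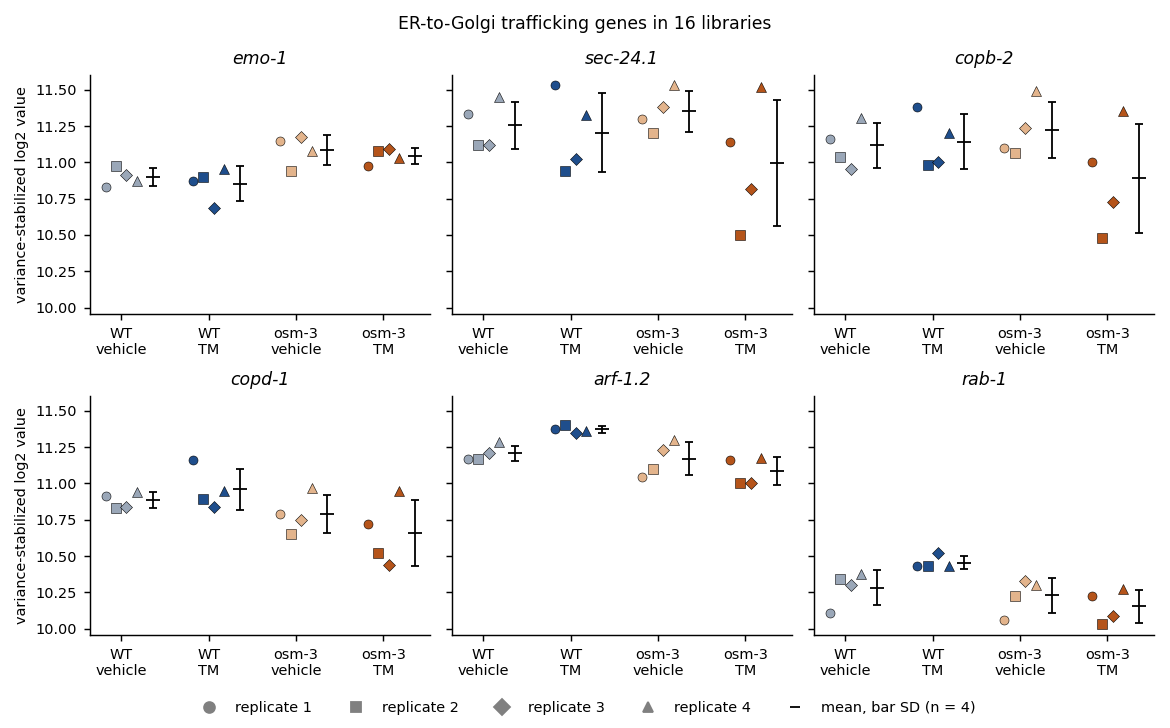
Variance-stabilized log2 values of the 6 genes in the 4 groups, with marker shape giving the replicate number and the bar giving the mean ± SD (n = 4). *arf-1.2* and *rab-1* sit higher in the WT TM group than in the WT vehicle and *osm-3* TM groups, and *sec-24.1*, *copb-2* and *copd-1* have replicate 4 as their highest value within the *osm-3* TM group.

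In *osm-3* mutants the same TM exposure left all 6 genes with a negative difference, none of which passed the test. Only 0.0729% of all genes passed in this comparison (3 of 4115, with 493 at an unadjusted p under 0.05). That small count depended on the fit. With the replicate number within each genotype as a block, 360 of the 4115 genes passed, 130 higher and 230 lower. The median over the 6 genes was −0.11 beside −0.04 over all genes tested and −0.14 over the 1814 genes with higher expression, at least 3 log2 units above the lowest value. After quantile normalization 3 of the 6 genes had a positive difference, and 2 of 6 did with library weights. In that weighted fit *osm-3* TM replicate 1 had a weight of 4.88, and replicates 2 to 4 had 0.25 to 0.38.

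The long coat genes had the largest differences. *copb-2* had log2 values of 11.10, 11.07, 11.23 and 11.49 in *osm-3* vehicle replicates 1 to 4 and of 11.003, 10.48, 10.73 and 11.35 in *osm-3* TM replicates 1 to 4. *sec-24.1* had 11.30, 11.20, 11.38 and 11.53 on vehicle and 11.14, 10.50, 10.82 and 11.52 on TM. For both genes TM replicate 2 was far below all vehicle values and TM replicate 4 was within the vehicle range, and the TM value was below the vehicle value for each of the 4 replicate numbers. The difference was −0.33 ± 0.16 for *copb-2* (95% interval −0.66 to −0.005) and −0.36 ± 0.18 for *sec-24.1* (−0.73 to 0.01), each with a limma adjusted p of 0.36. With the replicate number within each genotype as a block, the limma adjusted p was 0.044 for *copb-2* and 0.053 for *sec-24.1*, in the fit that called 360 of all genes. Without *osm-3* TM replicate 4 the differences were −0.49 and −0.53, and the limma adjusted p was 0.034 for each. Without *osm-3* TM replicate 2 they were −0.20 and −0.19 (adjusted p = 0.58 and 0.59). Over all genes, leaving out 1 library at a time gave from 1 to 790 calls in this comparison, beside 3 with all libraries.

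These values moved with the length trend of the libraries. In *osm-3* TM replicates 1 to 4 the trend was −0.14, −0.59, −0.33 and 0.44, in the same order from lowest to highest as the values of *copb-2* and *sec-24.1* in those libraries. With that trend removed from each library, an alternative chosen after seeing the data, the differences were −0.21 for *copb-2* and −0.23 for *sec-24.1*, and the limma adjusted p was 0.36 for both.

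*copd-1* had 10.79, 10.65, 10.75 and 10.97 in *osm-3* vehicle replicates 1 to 4 and 10.72, 10.52, 10.44 and 10.95 in *osm-3* TM replicates 1 to 4. The groups overlapped, although each TM value was below the vehicle value of the same number. The germline genes took 0.314%, 0.283%, 0.238% and 0.417% of reads in *osm-3* TM replicates 1 to 4, in the same order from lowest to highest as *copd-1* and with replicate 4 also the highest for *copb-2* and *sec-24.1*. Their part in the differences of these 3 genes was not tested. Its difference was −0.13 ± 0.11 (limma adjusted p = 0.49). *arf-1.2* had 11.05, 11.10, 11.23 and 11.30 on vehicle and 11.16, 11.002, 11.002 and 11.18 on TM. *rab-1* had 10.06, 10.22, 10.33 and 10.30 on vehicle and 10.23, 10.03, 10.09 and 10.27 on TM. For both GTPases TM replicates 2 and 3 were low, and 3 of 4 replicate numbers were lower on TM. *emo-1* had 11.14, 10.94, 11.17 and 11.08 on vehicle and 10.97, 11.08, 11.09 and 11.03 on TM, with all TM values inside the vehicle range. Differences were −0.08 ± 0.080 for *arf-1.2*, −0.07 ± 0.085 for *rab-1* and −0.04 ± 0.082 for *emo-1*, with limma adjusted p-values of 0.56, 0.63 and 0.80.

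On vehicle plates, which compare the genotypes without TM, none of the 6 genes passed the test between *osm-3* mutants and WT animals, beside 10.6% of all genes (438 of 4115, and 939 at an unadjusted p under 0.05). When only the 1814 genes with higher expression were tested, which include the 6 genes, 52 passed. The median of the 6 genes was 0.03 and that of all genes −0.04. *emo-1* was the furthest from 0, with a difference of 0.19 ± 0.082 (95% interval 0.01 to 0.36, limma adjusted p = 0.18). Its values were higher in 3 of the 4 *osm-3* libraries than in any WT library, and *osm-3* replicate 2 fell inside the WT range. With library weights from the spread around the group means, *emo-1* passed (0.26, limma adjusted p = 0.0011). So did 1420 of the 4115 genes in either direction. These weights were 4.72 and 5.11 for replicate 1 of WT vehicle and *osm-3* vehicle. They were 0.58 to 1.65 for the other vehicle libraries. With the length trend removed its difference was 0.14 (adjusted p = 0.38). The other 5 genes lay between −0.09 and 0.11, and the limma adjusted p was 0.69 or more for each.

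Under TM, 5 of the 6 genes had a negative difference between *osm-3* mutants and WT animals. Of the 6, 2 passed the test as lower in the mutants and none as higher. Of all genes 19.2% passed in this comparison, 9.74% in the lower direction (401 of 4115) and 391 genes in the higher direction. When only the 1814 genes with higher expression were tested, 165 passed in either direction. With libraries centred on their medians the split was 443 higher and 267 lower. The 2 of 6 are read against that share, as a description of a short list. The median log2 difference of the 6 genes was −0.27, beside −0.10 over all genes tested and −0.17 over the 1814 genes with higher expression.

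The 2 genes that passed as lower in the mutants were the GTPases. *arf-1.2* was lower by a log2 difference of −0.29 ± 0.080 (95% interval −0.45 to −0.12, limma adjusted p = 0.018), to 0.820 of the WT level on this scale. *rab-1* was lower by −0.30 ± 0.085 (−0.48 to −0.12, limma adjusted p = 0.021), to 0.812. For both genes the 4 *osm-3* TM libraries lay below the 4 WT TM libraries, as they did for 8.53% of all genes. *arf-1.2* ranged from 11.002 to 11.18 against 11.35 to 11.40, and *rab-1* from 10.03 to 10.27 against 10.43 to 10.52. Both were past the threshold with libraries centred on their medians (−0.25 and −0.27, adjusted p = 0.031 for each) and with the length trend removed (−0.27 and −0.33, adjusted p = 0.018 and 0.013). Neither passed when only the 8 TM libraries entered the fit (adjusted p = 0.13 and 0.096) or after quantile normalization (−0.14 and −0.19, adjusted p = 0.19 and 0.10). For *rab-1* the adjusted p was 0.056 without WT TM replicate 3, 0.054 without *osm-3* TM replicate 2 and 0.055 without *osm-3* TM replicate 3.

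Of the coat genes, *copd-1* came closest to the threshold, with −0.30 ± 0.11 (95% interval −0.53 to −0.07, limma adjusted p = 0.058). Its *osm-3* TM replicate 4, at 10.95, lay within the range of the WT TM libraries, and without that library the difference was −0.40 (adjusted p = 0.0067). *copb-2* had −0.25 ± 0.16 (adjusted p = 0.24), −0.41 without the same library (adjusted p = 0.029) and −0.12 without *osm-3* TM replicate 2 (adjusted p = 0.58). *sec-24.1* had −0.21 ± 0.18 (adjusted p = 0.38), −0.38 and −0.05 without the same libraries in turn, and 0.03 with library weights, which turned its sign. In the weighted fit *osm-3* TM replicate 1 had a weight of 4.88, beside 0.25 to 0.38 for the other replicates of its group. The WT TM libraries had weights of 0.31 to 1.55. *emo-1* went the other way, at 0.19 ± 0.082 (95% interval 0.02 to 0.36, adjusted p = 0.11). Its lowest *osm-3* TM value, 10.97, was above its highest WT TM value, 10.96, by less than the spread within either group, and 7.53% of all genes had *osm-3* TM libraries wholly above WT TM libraries. With the length trend removed, the difference of *emo-1* was 0.05 (adjusted p = 0.66). After quantile normalization it was 0.35 (adjusted p = 0.019). Over all genes, leaving out 1 library at a time gave from 501 to 1591 calls in this comparison, beside 792 with all libraries.

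The TM response was then compared directly between WT animals and mutants. None of the 6 genes passed, beside 0.486% of all genes (20 of 4115, and 202 at an unadjusted p under 0.05). Taken as mutant minus WT, the response of *arf-1.2* differed by −0.25 ± 0.11 on the log2 scale (95% interval −0.49 to −0.01), that of *rab-1* by −0.25 ± 0.12 (−0.50 to 0.01), and that of *copb-2* by −0.36 ± 0.22 (−0.82 to 0.10), each with a limma adjusted p of 0.90. For *emo-1* it was 0.01 ± 0.12 (−0.24 to 0.25). The calls for the GTPases between genotypes under TM were therefore not matched by a call for a difference in response, and the 5 comparisons share libraries and are not independent of each other. For *hsp-4* the same difference was −0.89 ± 0.19 (limma adjusted p = 0.038), which did not pass when any of 12 of the 16 libraries was left out.

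**Figure D3:**
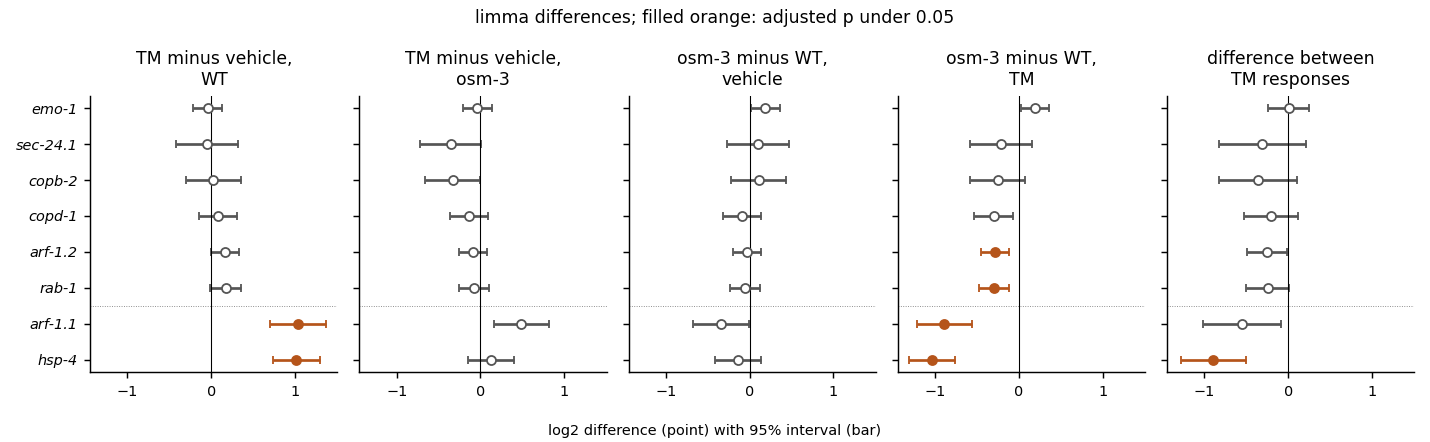
Log2 differences of the 6 genes, of *arf-1.1* and of *hsp-4* in the 5 comparisons, with 95% intervals from limma as bars and filled orange points where the adjusted p was under 0.05. Among the 6 genes only *arf-1.2* and *rab-1* are filled, at −0.29 and −0.30 for *osm-3* against WT under TM, while *hsp-4* lies at 1.02 for TM in WT animals.

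Across the 16 libraries 4 of the 6 genes formed pairs with like profiles, described here by Pearson's r of the log2 values with no test, since the libraries share groups and composition. *copb-2* and *sec-24.1*, a COPI and a COPII coat gene, had r = 0.97, and r = 0.98 on deviations from the group means. On deviations neither was among the 3 genes most similar to the other. Those were led by *pqn-20* (r = 0.986) for *copb-2* and by *ptp-3* (r = 0.990) for *sec-24.1*. *arf-1.2* and *rab-1* had r = 0.91, and each was the most similar to the other of all genes tested. On deviations from the group means their r was 0.77 and neither was among the 3 genes most similar to the other, which were led by *pgp-14* (r = 0.85) for *arf-1.2* and by *cft-1* (r = 0.82) for *rab-1*. *copb-2* and *copd-1*, which belong to the same coat, had r = 0.81, and 0.90 on deviations. *emo-1* had r between −0.56 and −0.04 with the other 5 genes and between −0.15 and 0.02 on deviations.

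**Figure D4:**
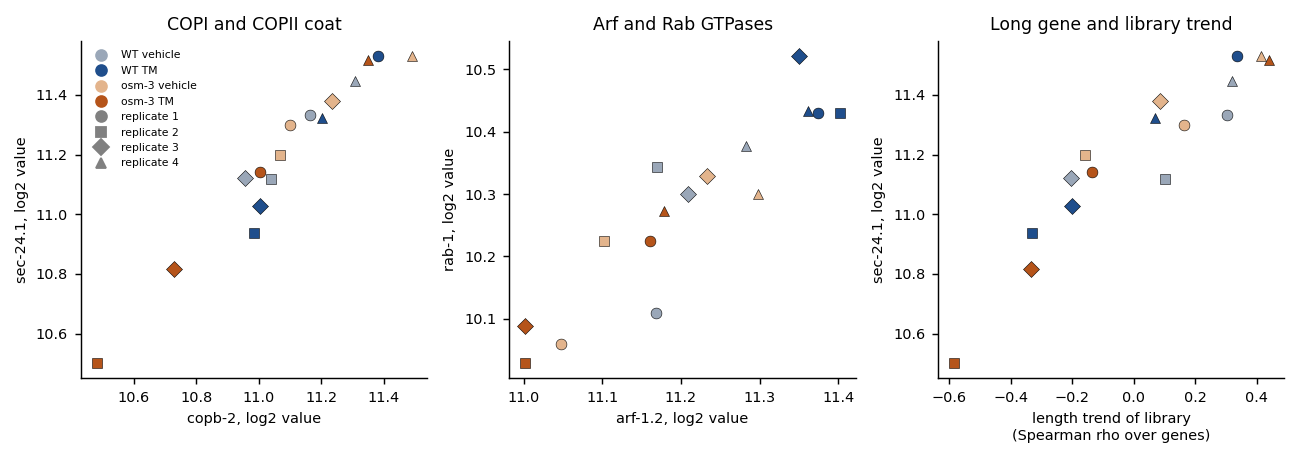
Log2 values of *sec-24.1* against *copb-2*, of *rab-1* against *arf-1.2*, and of *sec-24.1* against the length trend of the library (Spearman rho over genes), with 1 point per library, coloured by group and shaped by replicate number. The coat genes rise together across all groups and with the length trend, from *osm-3* TM replicate 2 (trend −0.59) to *osm-3* TM replicate 4 (0.44), while the WT TM libraries form the upper right cluster of the GTPase plot.

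Ratios of the levels per kb were also taken within each library. *rab-1* stood at a median of 0.588 of the *arf-1.2* level in WT vehicle, 0.579 in WT TM, 0.569 in *osm-3* vehicle and 0.574 in *osm-3* TM libraries. *sec-24.1* stood at 1.09, 1.03, 1.08 and 1.06 of the *copb-2* level in the same order of groups. *copb-2* stood at 0.579 and 0.562 of the *copd-1* level in WT vehicle and WT TM libraries, and at 0.688 and 0.607 in *osm-3* vehicle and *osm-3* TM libraries. The ratio of the short *emo-1* to the long *copb-2* was the least even. It ranged from 5.78 to 8.81 in the other 3 groups and from 6.69 to 13.6 in *osm-3* TM libraries.

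Beyond the 6 genes themselves, the most similar profiles over the 16 libraries were as follows. For *copb-2* they were *sec-24.1*, *cdc-48.1* (r = 0.97), the worm p97 ATPase of ER-associated degradation, and AC8.1 (r = 0.97). For *sec-24.1* they were *ptp-3* (r = 0.98), a receptor tyrosine phosphatase, *copb-2*, and D1044.6 (r = 0.97). For *copd-1* they were *ppw-1* (r = 0.98), an Argonaute protein, F10E9.3 (r = 0.95) and *gfat-2* (r = 0.95), an enzyme of the hexosamine pathway. For *arf-1.2*, after *rab-1*, they were C04F12.1 and C34F6.7 (r = 0.89 for each), and for *rab-1*, after *arf-1.2*, *crh-2* and C36A4.14 (r = 0.86 for each). For *emo-1* they were the histone gene *his-35* (r = 0.84), *rnh-1.3* (r = 0.81) and *zmp-3* (r = 0.81). On deviations from the group means the most similar genes of *emo-1* included *rps-21* (r = 0.73) and *rpl-37* (r = 0.68), both short ribosomal protein genes.

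The wider route was followed with 4 lists of 98 names in all, of which 89 were genes in the annotation and 31 were in the table, the 6 genes included. Of the other 25 genes, 24 passed the filter on low values. In WT animals 1 of these 24 genes passed as higher on TM and none as lower. The median of the 24 was 0.04, beside −0.02 over all genes. Of all genes 1.56% passed, in either direction. In *osm-3* mutants none of the 24 passed for TM, beside 0.0729% of all genes, with a median of −0.08. Between the genotypes on vehicle none of the 24 passed, beside 10.6% of all genes, with a median of −0.08. With replicate number as a block over all 16 libraries, 2 of the 24 passed as lower and none as higher. In the same order, 333 and 402 of all 4115 genes passed. With library weights 7 passed as lower and none as higher, beside 769 and 651 of all 4115 genes.

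The gene raised in WT animals was *arf-1.1*, which encodes an Arf-related small GTPase and lies in the COPI and Arf list. It was the rare relative of *arf-1.2*. It had 68, 58, 79 and 9 reads in WT vehicle replicates 1 to 4 and 213, 388, 290 and 182 reads in WT TM replicates 1 to 4. Every TM library was above every vehicle library, and vehicle replicate 4 was the low value. The log2 difference was 1.04 ± 0.16 (limma adjusted p = 9.2e-04), on a scale that understates changes of rare transcripts. Per kb of exon its level was 71.9 ± 43.6 normalized reads on vehicle and 321 ± 93.7 on TM (SD, n = 4), beside 1656 ± 68 and 1873 ± 31.7 for *arf-1.2*.

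In *osm-3* mutants *arf-1.1* had 15, 35, 17 and 10 reads on vehicle and 67, 53, 75 and 43 on TM. These groups did not overlap either, as held in this direction for 1.75% of all genes. The difference was 0.49 ± 0.16, with a limma adjusted p of 0.36, and of 0.014 with the replicate number within genotype as a block. On vehicle *arf-1.1* was lower in *osm-3* mutants by −0.34 ± 0.16 (adjusted p = 0.21, and 0.031 when replicate number entered as a block). Without WT vehicle replicate 4, its library with 9 reads, that difference was −0.51 (adjusted p = 0.020), and without *osm-3* TM replicate 4 the difference within mutants was 0.54 (adjusted p = 0.038). Under TM it was lower by −0.89 ± 0.16 (adjusted p = 5.5e-04). The difference between the TM responses was −0.55 ± 0.22 (adjusted p = 0.76). How far reads of the Arf genes were shared out between near-identical stretches was not tested.

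**Figure D5:**
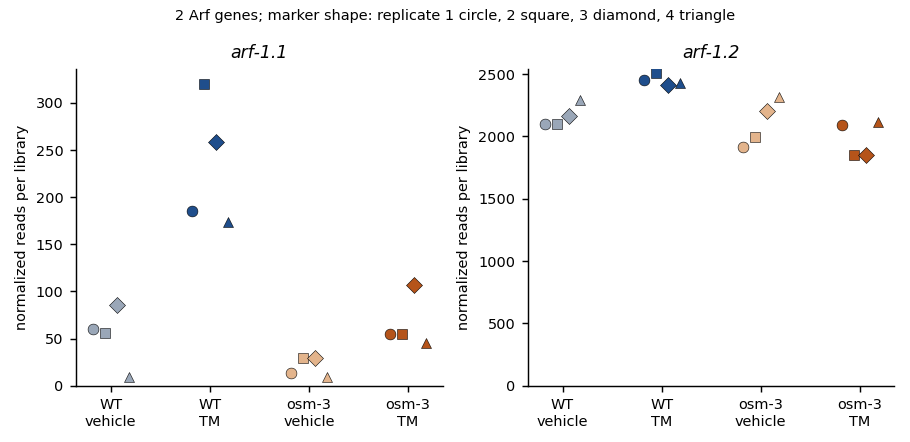
Normalized reads per library of *arf-1.1* and *arf-1.2* in the 4 groups, on linear axes that start at 0 and differ between the panels, with marker shape giving the replicate number. *arf-1.1* is highest in the 4 WT TM libraries (182 to 388 reads before normalization) which are also the 4 highest libraries of *arf-1.2*.

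Other genes of the COPI list had differences that depended on the fit in WT animals. *erd-2*, the receptor that returns escaped ER proteins, had 0.41 ± 0.11 (limma adjusted p = 0.086, and 0.0059 with the block within genotype), and also passed without WT TM replicate 1 (adjusted p = 0.037) or *osm-3* TM replicate 4 (adjusted p = 0.036). *cope-1*, the epsilon subunit of COPI, had 0.24 ± 0.076 (adjusted p = 0.16, and 0.035 with that block). In WT animals that block called 3 of the 24 genes as higher, beside 159 of all 4115 genes. In *osm-3* mutants with the same block, *srpa-72*, a subunit of the signal recognition particle, had −0.34 (adjusted p = 0.049), and *trpp-11*, a subunit of the TRAPP tether, had −0.35 (adjusted p = 0.041). There the block called 2 of the 24 genes as lower and 1 as higher, beside 230 and 130 of all genes. On vehicle, the other gene that was lower in *osm-3* mutants with replicate number as the block was *trpp-9*, also a TRAPP subunit (−0.25, adjusted p = 0.045).

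Between the genotypes under TM, 5 of the 24 genes passed as lower in *osm-3* mutants and none as higher, beside 9.74% of all genes that passed as lower. The median of the 24 was −0.21, beside −0.10 over all genes tested. It was −0.17 over the 1814 genes with higher expression, which do not include all of the 24. In the COPI, Arf and retrieval list 3 of 5 genes passed, namely *arf-1.1*, *erd-2* (−0.47 ± 0.11, limma adjusted p = 0.0062) and *cope-1* (−0.37 ± 0.076, adjusted p = 0.0021). In the list of Rab, TRAPP, tether and SNARE genes 2 of 13 passed, *memb-1* (−0.34 ± 0.071, adjusted p = 0.0023), a Golgi SNARE, and *cogc-5* (−0.30 ± 0.097, adjusted p = 0.040), a subunit of the COG tether, which did not pass under 14 of its alternatives. None of 4 genes of the signal recognition and translocon list and none of 2 of the COPII list passed. No gene of the lists passed the test of a difference between the TM responses. There the median of the 24 was −0.13, beside −0.05 over all genes and −0.11 over the 1814 genes with higher expression.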

How the data were processed

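Total RNA of whole worms was depleted of ribosomal RNA and sequenced as stranded libraries. Per the labels and the study's methods, the authors mapped reads with kallisto 0.43.0-1 (strand option on) to Ensembl release 94 cDNA of WBcel235 and deposited variance-stabilized log2 values per gene from DESeq2 1.16.1. Their deposited comparison tables hold fold changes and p-values and were not used. The transformation was inverted: 100% of the values came out as whole reads within 0.01 after scaling by a size factor per library, and reads and normalized reads are from that inversion. The entry without a gene name (0.177% to 0.531% of reads) was left out.

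The log2 values were tested with limma 3.58.1 (R 4.3.3, moderated test with a mean-variance trend, two-sided): all 16 libraries in one model with a mean per group, 12 residual degrees of freedom, a filter that kept the 4115 of 8347 genes whose mean exceeded the lowest value by 1 log2 unit or more, and Benjamini-Hochberg adjustment over them, threshold 0.05. The method was tested on simulated data with independent noise for each gene. That simulation held no length trend or replicate effect, so it cannot show how the test behaves with them. Intervals are 95%. Exon lengths came from Ensembl release 115 (98.7% of tested genes). The study describes the replicates as biological. How their cultures were kept apart is not given in the sources used here, and p-values measure the spread between these samples.

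Named were the 6 genes, up to 4 genes past the threshold per pathway list and comparison, the 3 genes most correlated with each of the 6, *hsp-4*, and relatives by name. *erd-2*, *cope-1* in WT animals, *srpa-72*, *trpp-11* and *trpp-9* were added after their values were seen, because the block changed their calls. The 6 genes, the lists and the tests were chosen with earlier results of these data known. *emo-1*, *arf-1.2*, *arf-1.1* and *erd-2* were matched to the annotation by sequence name. Deviations of same-numbered libraries correlated at 0.25 to 0.58 between WT vehicle and WT TM, 0.33 to 0.86 between *osm-3* vehicle and *osm-3* TM, 0.18 to 0.50 between the genotypes on vehicle and −0.04 to 0.64 under TM. Numbers were thus taken as paired, from the data alone, except between the genotypes under TM. The block used between the genotypes on vehicle was fitted over all 16 libraries, so the TM groups entered it too. Same-numbered libraries of WT TM and *osm-3* vehicle correlated at −0.01 to 0.57. The main fit did not use this pairing, which entered only in the alternatives with a block. Alternatives were other filters, groups, scalings, variance models, blocks by replicate number, and each library left out. The analysis of promoter sequences was not run.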

Additional observations from a re-analysis of the deposited data

Results flagged for a closer look

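The log2 value of *rab-1* in WT TM replicate 3 was 10.52, apart from the other 3 WT TM libraries at 10.43, which lay within 0.01 of each other. Its distance from them is below the SD of *rab-1* in each of the other groups (0.11 to 0.12). Reads on named genes numbered 4173301 in *osm-3* vehicle replicate 3, against 7554487 to 7928703 in the other 3 libraries of its group. Of 44 groups of 4 values examined, these 2 stood apart by Dixon's ratio, which chance alone passes in about 1 group in 20. The TM response of *hsp-4* differed between the genotypes by −0.89 (limma adjusted p = 0.038), and leaving out any of 12 of the 16 libraries raised the adjusted p above 0.05, to at most 0.11.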

How the results depend on the processing

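Over the 30 differences of the 6 genes and their 852 values under alternatives, 834 stayed on the same side of the threshold, 7 calls were lost, 11 were gained and no called difference changed sign. With library weights 1 of the 6 genes passed for TM in WT animals (*rab-1*) and 1 for genotype on vehicle (*emo-1*). With the replicate block within genotype 1 passed for TM in *osm-3* mutants (*copb-2*), and the block changed no other call of the 6 genes where the numbers paired. For *osm-3* against WT under TM, where they did not pair, the shared block, library weights and the test without a variance trend each gave 3 (*copd-1* added, adjusted p = 0.011, 0.037 and 0.0496), the fit of only the groups compared gave 0, and quantile normalization gave 1 (*emo-1*, higher). Leaving out each library in turn gave 0 to 2 genes for TM in *osm-3* mutants and 1 to 4 for genotype under TM, with both highest counts without *osm-3* TM replicate 4 and the count of 1 with replicate 3 of WT TM, or replicate 2 or 3 of *osm-3* TM, left out. The difference between the TM responses gave 0 under all 28 alternatives. The cause of these changes was not tested. Counts over all genes ranged from 24 to 595 (64 as reported) for TM in WT animals, 0 to 1423 (3) for TM in *osm-3* mutants, 52 to 1420 (438) for genotype on vehicle, 165 to 1683 (792) under TM and 10 to 154 (20) for the difference. The highest were with library weights and the lowest with the stricter filter, except for the difference, which was lowest without WT vehicle replicate 1. Of the other 24 pathway genes, 0 to 6, 0 to 5, 0 to 7, 1 to 11 and 0 to 1 passed in the same order. With libraries centred on their medians the difference between responses split into 4 higher and 10 lower genes (9 and 11 as reported), and TM in *osm-3* mutants into 4 and 1 (2 and 1). No scaling moved the median of all genes by more than 0.05. Depth limits *arf-1.1*, with as few as 9 reads in a library.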
